A study of Saccharomyces cerevisiae with 28 samples.

Results

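CUP1-2 (YHR055C) encodes a copper metallothionein of budding yeast, and it was followed on a spotted splicing microarray across 8 mutant strains, 2 of them through a shift to cold. It was taken as all spots that the platform annotation gives to CUP1-2. They are 6 of 9216 spots, all copies of 1 probe, and CUP1-2 is 1 of 982 named genes. The gene was picked with its values on these arrays known, so every value of CUP1-2 below is a description without a test.

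Metallothioneins are small, cysteine-rich proteins that bind copper and cadmium and so keep free metal low. In yeast the copper-sensing activator Cup2 (also called Ace1) turns CUP1 on when copper is plentiful. The heat shock factor Hsf1 can also drive it under heat and oxidative stress. CUP1-2 and its neighbour CUP1-1 lie in a tandem repeat whose copy number differs between yeast strains. Both have a coding length of 186 bases in the RefSeq gene table of assembly R64. That table also places the non-coding RNA gene RUF5-2 on the opposite strand over CUP1-2, and the small coding gene YHR054C-B over it; neither is a named gene of the array. The labels and files do not say which of these transcripts the CUP1-2 probe can bind, or whether it tells the CUP1 copies apart.

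On every array a mutant competed with wild type grown and collected in the same way. Strains csn12, YPR045C, ist3, csn9, pci8 and isy1 were sampled in logarithmic growth at 30 °C. Strains tgs1 and ynr004w were taken at 30 °C before the shift (0 min), and again once 10, 25 or 40 min had passed at 16 °C. The strains are named for the genes CSN12, THP3 (YPR045C), IST3, CSN9, PCI8, ISY1, TGS1 and SWM2 (YNR004W), and the sample names do not give the kind of mutation. Each of the 14 conditions has 2 arrays, the first with the mutant in Cy5 and the second with the mutant in Cy3, so 28 arrays in all. The labels give neither the strain background, the number of CUP1 copies nor the copper in the medium, and do not say whether one wild-type RNA served several strains.

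Values are log2 ratios of mutant over wild type after centring each array on its median. Base and direction are not stated and are taken as likely, because channel 1 holds the mutant on every array. In tgs1 and ynr004w the alpha-factor gene MF(ALPHA)1 was below 0 on all 16 arrays, in either dye, with pair means between -5.04 and -4.03. Both dye orientations were thus signed alike there, which does not settle the direction. With the opposite direction all signs would turn, and CUP1-2 would be the lower one in 12 conditions instead of the higher. A level "± SD" gives the spread between the 2 arrays of a condition. Nothing says that these arrays hold separate cultures, so it may be technical, and their number limits the precision.

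Between 8893 and 9199 spots had a value on an array. Of the genes that the strains are named for, 5 have no named probe here, and for the other 3 the arrays do not settle the label. IST3 was at 0.15 in ist3, within the range of the other conditions, as the mean of arrays at 0.63 and -0.32. ISY1 was at -0.12 in isy1, against -0.11 in the lowest other condition, and TGS1 was between -0.33 and -0.09 in tgs1, where other strains reached -0.31. The arrays of TGS1 had opposite signs in every tgs1 condition, as with 0.67 in Cy5 and -0.86 in Cy3 at 30 °C. Strains are called by their labels throughout. The alpha-factor and a-factor genes also separated the strains: MF(ALPHA)1 was at 4.84 in YPR045C and 5.24 in ist3, and MFA2, an a-factor gene, was at 2.02 to 2.82 in the conditions of tgs1 and ynr004w. The part of this difference in the CUP1-2 values was not tested.

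The CUP1-2 probe gave close values from its spots. All 6 spots had a value on all 28 arrays, and the median SD among them was 0.07, against 0.16 for the median probe. A larger spread was found in 99.0% of probes. The 6 spots lay above 0 together on 22 arrays and below 0 together on 2 arrays. The median difference between the 2 arrays of a pair was 0.13 for CUP1-2 and 0.42 for the median gene. Both arrays had one sign in 13 of 14 pairs. That was true of at least 13 pairs in 15 of 982 genes (1.53%), while the median gene had one sign in 4 pairs. A smaller dye effect remained, since 10 of 14 pairs read higher with the mutant in Cy3 (mean 0.30) than in Cy5 (mean 0.21).

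Before the shift, CUP1-2 stood above wild type in both cold-shift strains. In tgs1 at 30 °C the arrays read 0.52 and 0.51, a level of 0.51 ± 0.01 (SD, n = 2 arrays), or 1.43-fold. In ynr004w at 30 °C they read 0.25 and 0.39, a level of 0.32 ± 0.10, or 1.25-fold. Both arrays of tgs1 lay above both arrays of ynr004w. Ranked by level, CUP1-2 was the fourth of 982 genes in tgs1, behind MFA2, MFA1 and GTS1, and the ninth in ynr004w, where the 95th percentile of genes was 0.20.

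**Figure D1:**
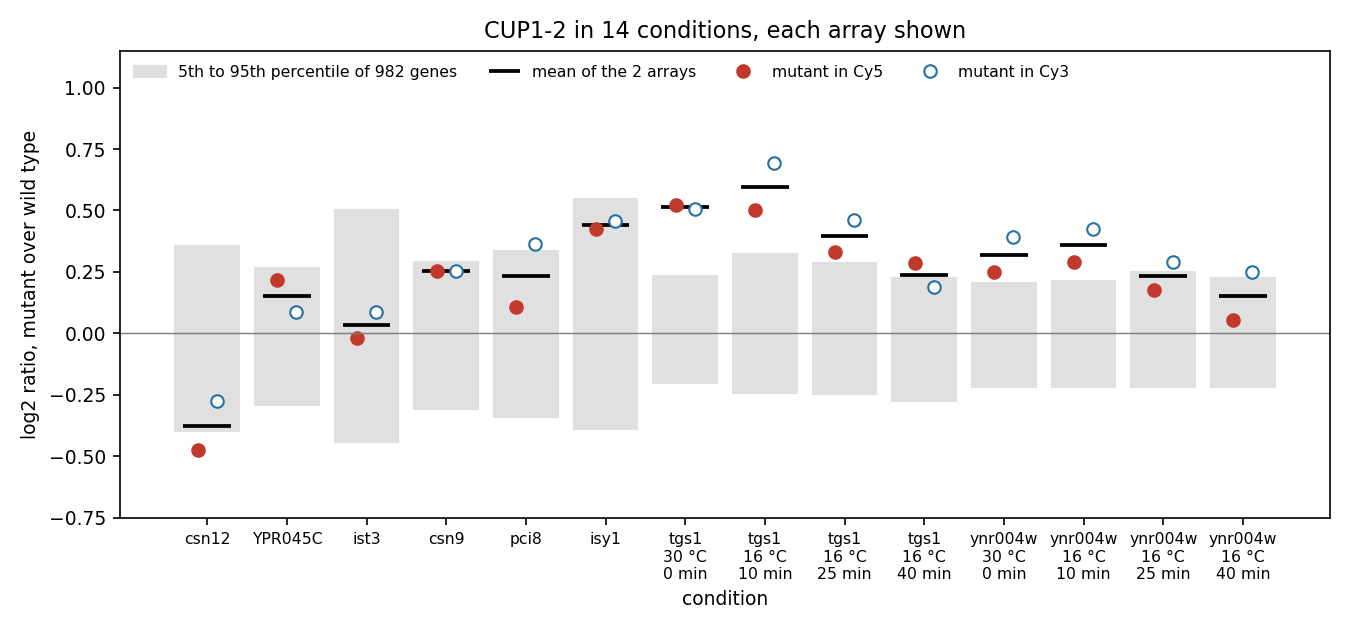
Log2 ratio of CUP1-2 (mutant over wild type, vertical axis) in 14 conditions (horizontal axis), with a filled point for the array with the mutant in Cy5, an open point for Cy3 and a bar for their mean. The grey blocks span the 5th to 95th percentile of the pair means of 982 genes; tgs1 at 10 min has the highest mean, 0.60, and csn12 the lowest, -0.38.

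After the shift to 16 °C, CUP1-2 was at its highest ratio at 10 min and then moved down towards wild type in both strains. In tgs1 the arrays read 0.50 and 0.69 at 10 min, 0.33 and 0.46 at 25 min, and 0.28 and 0.19 at 40 min. The levels were 0.60 ± 0.13, 0.40 ± 0.09 and 0.24 ± 0.07, or 1.51-, 1.32- and 1.18-fold. Both arrays at 10 min lay above both arrays at 25 min, and those lay above both arrays at 40 min.

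In ynr004w the arrays read 0.29 and 0.42 at 10 min, 0.18 and 0.29 at 25 min, and 0.05 and 0.25 at 40 min. The levels were 0.36 ± 0.09, 0.23 ± 0.08 and 0.15 ± 0.14, or 1.28-, 1.17- and 1.11-fold. The steps went the same way as in tgs1 on either array, but arrays of neighbouring time points were less clearly apart: at 40 min the array with the mutant in Cy3 lay above the 25 min array with the mutant in Cy5.

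Between 10 and 40 min the ratio moved by -0.36 ± 0.20 (SD, n = 2 arrays) in tgs1, -0.22 with the mutant in Cy5 and -0.50 in Cy3. In ynr004w it moved by -0.21 ± 0.04, -0.24 and -0.18 on the single arrays. The array means are averages of the spots, so the spots show evenness within an array and are not replicates of a condition. A spot followed on one array of a strain and dye gives 24 series (6 spots, 2 strains, 2 dyes). Of these, 22 were lower at 40 than at 10 min, and 20 stepped down from 10 to 25 and from 25 to 40 min. The first interval was less regular: 17 of 24 series were higher at 10 min than at 30 °C, but only 2 of 6 in tgs1 with the mutant in Cy5. The change of the mean from 30 °C to 10 min was 0.08 ± 0.14 in tgs1, smaller than its spread. In ynr004w it was 0.04 with the mutant in Cy5 and 0.03 in Cy3.

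**Figure D2:**
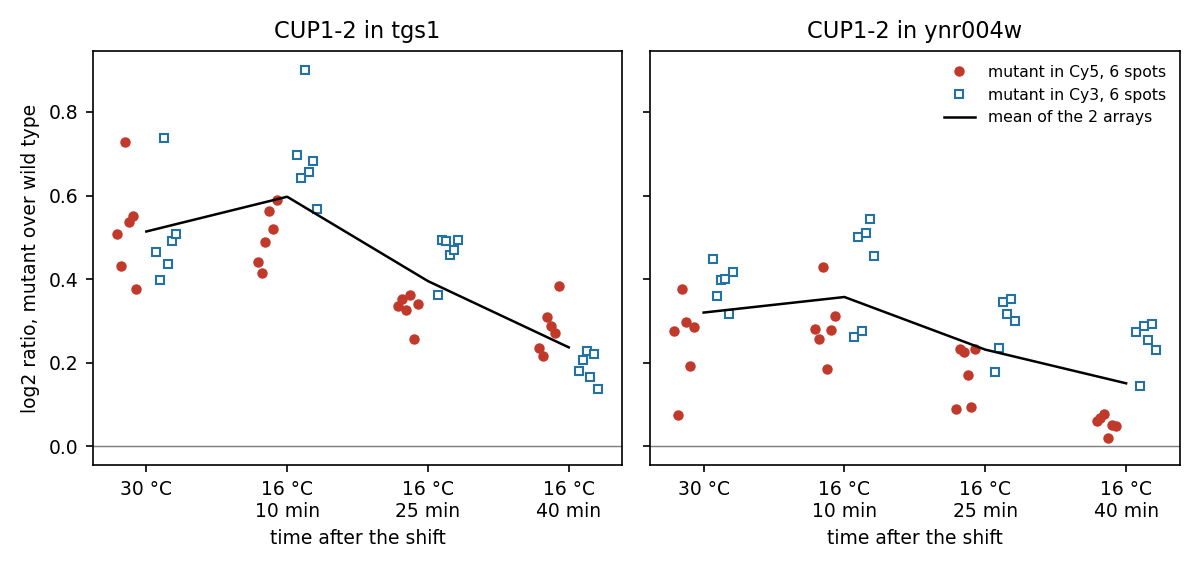
Log2 ratio of each CUP1-2 spot (mutant over wild type, vertical axis) at 30 °C and at 10, 25 and 40 min after the shift to 16 °C (horizontal axis), in tgs1 (left) and ynr004w (right). Filled circles are the 6 spots of the array with the mutant in Cy5, open squares those with Cy3, and the line joins the pair means, which run from 0.51 over 0.60 to 0.24 in tgs1 and from 0.32 over 0.36 to 0.15 in ynr004w.

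Set against 30 °C, the later time points were lower than the start. In tgs1 the difference was -0.12 ± 0.11 at 25 min and -0.28 ± 0.05 at 40 min. In ynr004w it was -0.09 ± 0.02 at 25 min and -0.17 ± 0.04 at 40 min. Among 982 genes the 25 min difference was the 191st lowest in tgs1 and the 197th in ynr004w. The 40 min difference was the 42nd lowest in tgs1 and the 92nd in ynr004w. Averaged over the 3 time points the cold minus 30 °C difference was small, -0.10 ± 0.06 in tgs1 and -0.07 ± 0.01 in ynr004w, since the 10 min point lay on the other side. With arrays scaled to one spread the tgs1 value was -0.067. Of 982 genes ordered by this average, CUP1-2 was the 220th lowest in tgs1 and the 237th in ynr004w. A ratio cannot tell a fall in the mutant from a rise in its wild type, because both were cooled for the same time and only their quotient was measured.

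The fall between 10 and 40 min placed CUP1-2 among the furthest-moving genes. Ordered by this change it was the 14th lowest of 982 genes in tgs1 and the 29th in ynr004w. The median gene moved by -0.02 and -0.00144 there, and the 5th and 95th percentiles of genes were -0.25 and 0.18 in tgs1 and -0.16 and 0.17 in ynr004w. Genes that fell at least as far in both strains were HSC82, SIS1 and MF(ALPHA)2. HSC82 encodes an Hsp90 chaperone and moved by -0.39 in tgs1 and -0.22 in ynr004w. SIS1, an Hsp40 co-chaperone, moved by -0.46 and -0.52, and MF(ALPHA)2, an alpha-factor gene, by -0.44 and -0.37.

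A step down from 10 to 25 to 40 min on every array of both strains was found in 8 of 982 genes (0.815%), CUP1-2 included. The others were HSC82, SIS1, HAS1, SBP1, STE12, DBP1 and NUP170, named here after their values were seen. HAS1 encodes a helicase of ribosome assembly, SBP1 an RNA-binding protein that represses translation, STE12 the transcription factor of the mating response, DBP1 an RNA helicase and NUP170 a nucleoporin. Their moves from 10 to 40 min ran from -0.46 to -0.21 in tgs1 and from -0.52 to -0.10 in ynr004w, with CUP1-2 within both ranges. Lower at 40 than at 10 min on every array, with no condition on the middle point, were 110 genes (11.2%).

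**Figure D3:**
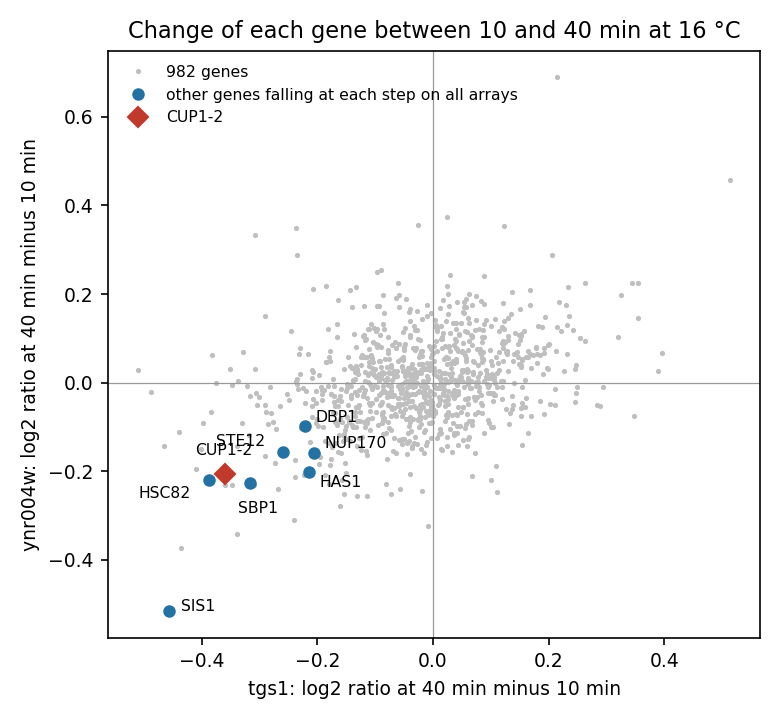
Change in log2 ratio from 10 to 40 min at 16 °C in tgs1 (horizontal axis) and ynr004w (vertical axis) for 982 genes. CUP1-2 (diamond) sits at -0.36 and -0.21, next to HSC82 at -0.39 and -0.22, and the labelled genes are the 8 that stepped down on every array.

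At matched time points CUP1-2 was higher in tgs1 than in ynr004w. The difference was 0.19 ± 0.11 (SD, n = 2 arrays) at 30 °C, 0.24 ± 0.04 at 10 min, 0.16 ± 0.01 at 25 min and 0.09 ± 0.20 at 40 min. It was above 0 on both arrays at the first 3 points. At every point it lay below the 95th percentile of genes, which was 0.21, 0.25, 0.26 and 0.14 from 30 °C to 40 min. With arrays scaled to one spread the differences shrank to 0.10, 0.15, 0.10 and 0.04 in the same order. At 40 min the array with the mutant in Cy5 gave 0.23 and the one with Cy3 gave -0.06, so that the strains could not be put in an order there. The labels do not say whether both strains were set against one wild-type RNA.

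In the strains kept at 30 °C the range of CUP1-2 was wider. In isy1, labelled for ISY1, a gene of the Prp19-associated complex, the arrays read 0.43 and 0.46, a level of 0.44 ± 0.02 (1.36-fold). In csn9, labelled for the signalosome subunit gene CSN9, they read 0.25 and 0.25, a level of 0.25 ± 0.0010 (1.19-fold). In pci8 they read 0.11 and 0.36, a level of 0.23 ± 0.18. Both arrays were thus above wild type in these strains, with those of pci8 the furthest apart. Within an array csn9 was not as close, since its spots with the mutant in Cy3 ran from 0.0040 to 0.50.

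In YPR045C the arrays read 0.22 and 0.09, a level of 0.15 ± 0.09. In ist3, labelled for the RES complex gene IST3, they read -0.02 and 0.09, a level of 0.04 ± 0.07, smaller than its spread. Its second array was also the least even over the slide, with spots from -0.20 to 0.45 and a mean of 0.32 over the 3 spots at one end and -0.15 over the 3 at the other. This was the only pair of CUP1-2 with opposite signs.

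CUP1-2 was below wild type only in csn12. The arrays read -0.48 and -0.28, a level of -0.38 ± 0.14, or 0.77-fold. All 12 spots of the pair were below 0. The highest of them, -0.15, lay below both array means of every other condition, though single spots of ist3 reached -0.20. CUP1-2 was at rank 930 of 982 genes in csn12, where the 5th percentile of genes, -0.40, lay lower still.

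Set in one order, the levels ran from tgs1 at 10 min (0.60) and at 30 °C (0.51) through isy1 (0.44), tgs1 at 25 min (0.40), ynr004w at 10 min (0.36) and at 30 °C (0.32) to csn9 (0.25). Then followed tgs1 at 40 min (0.24), pci8 (0.23), ynr004w at 25 min (0.23), ynr004w at 40 min (0.15), YPR045C (0.15), ist3 (0.04) and csn12 (-0.38). In 11 of the 13 neighbouring pairs of this order the arrays overlapped when the dyes are not matched, so their order is not settled by the arrays as a whole. Array by array of one dye, ynr004w was still higher at 10 min than at 30 °C (by 0.04 and 0.03) and lower at 40 than at 25 min (-0.12 and -0.04). The pairs without overlap were the step from tgs1 at 30 °C to isy1, of 0.07, and the step from ist3 to csn12, of 0.41. The array numbers in the labels run in separate series for csn12, YPR045C and ist3, for csn9 and pci8, for isy1, and for tgs1 with ynr004w, so strain and array series cannot be told apart across those sets.

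Because all genes of a strain spread differently, the same level can be common or rare. The level of 0.44 in isy1 lay below the 95th percentile of genes, 0.55, and gave rank 70. In tgs1 and ynr004w, CUP1-2 lay above the 95th percentile of genes in 6 of 8 conditions and in none of the 6 strains of logarithmic growth. Its rank moved from 4 at 30 °C to 7, 19 and 45 through the time points of tgs1, and from 9 to 11, 66 and 126 through those of ynr004w.

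The annotation gives the neighbouring copy, CUP1-1, 1 probe of its own, also in 6 spots, and the probes gave different profiles. Whether either probe tells the copies apart is not stated, so a gap between the probes cannot be read as one between the genes. CUP1-1 was less even: its spots had a median SD of 0.14, its arrays differed by 0.39 within the median pair, and both arrays had one sign in only 4 of 14 pairs. In isy1 the arrays read 0.55 and 0.59, and CUP1-1 was higher than wild type at 0.57 ± 0.08 (SE; limma on pair means, adjusted p = 0.000217; 0.0117 over single arrays). In tgs1 at 16 °C it was higher at 0.33 ± 0.04 (adjusted p = 0.000326; 0.0123 over single arrays).

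In tgs1 the single arrays of CUP1-1 read -0.23 and 0.41 at 30 °C, 0.17 and 0.50 at 10 min, 0.23 and 0.63 at 25 min, and -0.04 and 0.52 at 40 min. In ynr004w they read -0.33 and 0.04, -0.08 and 0.33, -0.24 and 0.18, and -0.07 and 0.26 in the same order. The array with the mutant in Cy3 was higher in all 8 of these pairs, and the arrays had opposite signs in 6 of them. The level at 16 °C minus that at 30 °C was 0.24 ± 0.09 in tgs1 (SE; limma, adjusted p = 0.182) and 0.21 ± 0.09 in ynr004w (adjusted p = 0.393), neither past the threshold of 0.05.

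CUP1-2 read above CUP1-1 in 10 of 14 conditions. The gap was 0.42 in tgs1 and 0.46 in ynr004w at 30 °C, and -0.00222 and 0.05 at 40 min. In tgs1 the arrays were far apart, with gaps of 0.75 and 0.097 at 30 °C and of 0.33 and -0.33 at 40 min, so the last mean is that of opposite gaps. The profiles correlated at Pearson r = 0.44 over 14 conditions, which put CUP1-1 at rank 199 of 981 genes by likeness to CUP1-2. In csn12, where CUP1-2 was at -0.38, CUP1-1 was at 0.02 with arrays of opposite sign.

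**Figure D4:**
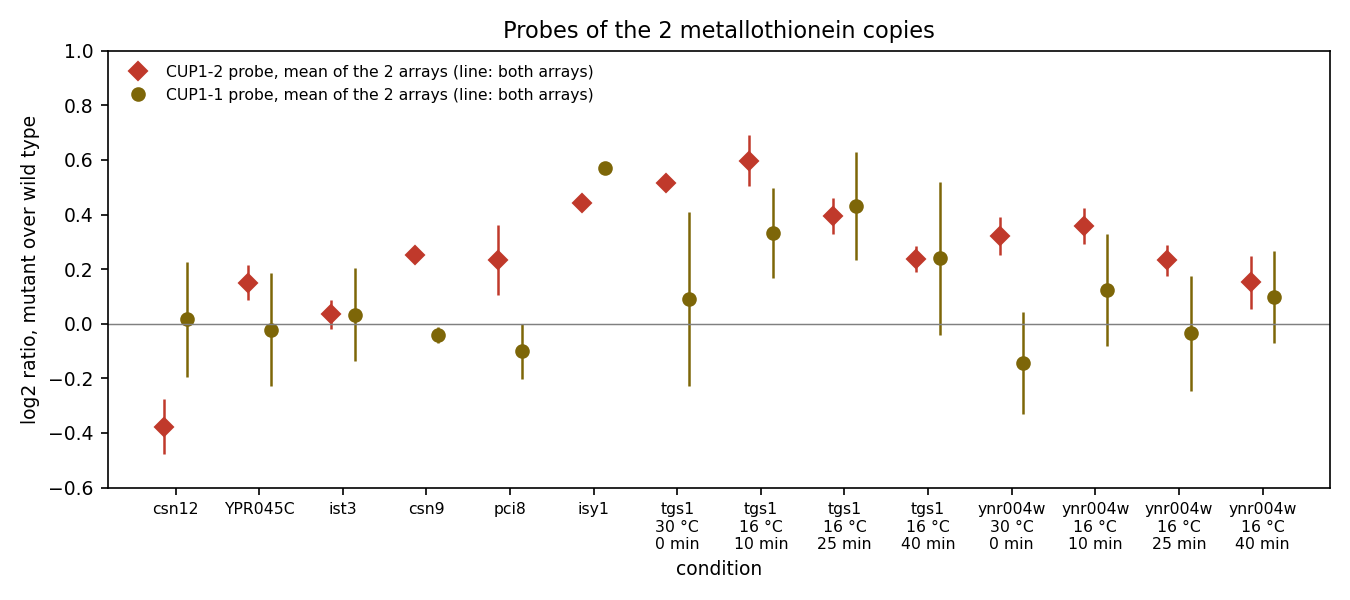
Log2 ratio (mutant over wild type, vertical axis) of the CUP1-2 probe (diamonds) and the CUP1-1 probe (circles) in 14 conditions (horizontal axis), as the mean of 2 arrays with a line joining both arrays. In isy1 the means are 0.44 and 0.57, while in csn12 they are -0.38 and 0.02.

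Other genes of copper and iron handling were sparse on the array, with 4 of 30 listed genes measured beside CUP1-2. They were CUP1-1, CUP2, CCS1, which encodes the copper chaperone of superoxide dismutase, and AFT1, the activator of the iron regulon. CUP2, the activator of CUP1, read -0.04 in tgs1 and 0.02 in ynr004w at 30 °C. At 16 °C it read -0.07 ± 0.04 (SE; limma, adjusted p = 0.11) and -0.06 ± 0.04 (adjusted p = 0.199). It was higher than wild type in csn12 at 0.18 ± 0.06 (adjusted p = 0.047) and in pci8 at 0.22 ± 0.06 (adjusted p = 0.0216). Both calls ended over single arrays (adjusted p = 0.568 and 0.489). That of csn12 also ended with centring on genes of 1 probe (0.081), with scaled arrays (0.295), with 1 probe a gene (0.0656), and without any one of the 16 °C pairs of ynr004w (0.0566 to 0.069).

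In tgs1 at 30 °C 1 of the 4 genes passed higher, where 5.7% of all genes passed: CCS1 at 0.42 ± 0.07 (SE; limma, adjusted p = 0.00818; 0.443 over single arrays, which read -0.33 and 1.17; 0.0714 with arrays scaled). At 16 °C CUP1-1 passed higher and AFT1 lower at -0.17 ± 0.03 (adjusted p = 0.00207; 0.218 over single arrays), where 46.1% of genes passed. In ynr004w at 30 °C none of the 4 passed (5.91% of genes), with 222 genes at an unadjusted p under 0.05. At 16 °C CCS1 passed higher at 0.20 ± 0.04 (adjusted p = 0.0052; 0.218 over single arrays; 32.8% of genes). The median of the 4 was 0.01 in tgs1 and 0.00325 in ynr004w at 16 °C, close to the median of all genes, -0.00124 and 0.01.

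In the strains of logarithmic growth csn12 had 3 of the 4 genes higher (36.8% of genes passed): AFT1 at 0.66 ± 0.05 (SE; limma, adjusted p = 2.92e-05), CCS1 at 0.61 ± 0.07 (adjusted p = 0.000176) and CUP2. The median of the 4 was 0.39, against -0.01 over all genes, while CUP1-2 was at -0.38. In ist3 CCS1 passed higher at 0.64 ± 0.07 (56.4% of genes), and in isy1 CUP1-1 (42.2%). In pci8 CCS1 and CUP2 passed higher and AFT1 lower (32.0%), in csn9 AFT1 lower (21.9%), and in YPR045C none (18.8%; 341 genes at an unadjusted p under 0.05). Over single arrays AFT1 and CCS1 in csn12 (7.03% of genes passed), CCS1 in ist3 (12.9%) and CUP1-1 in isy1 (11.7%) and in tgs1 at 16 °C (12.5%) also passed. None of the 4 passed there in YPR045C (1.12%), csn9 (2.65%), pci8 (2.65%), tgs1 at 30 °C (1.12%) and ynr004w at 30 °C (1.02%) or 16 °C (9.16%), where 77, 127, 144, 50, 53 and 187 genes had an unadjusted p under 0.05.

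No measured gene of the list passed for 16 °C against 30 °C in either strain, and neither did any of the 982 genes (0.0%) by limma on pair means. At an unadjusted p under 0.05 there were 180 genes in tgs1 and 118 in ynr004w. Over single arrays the adjusted count was 0 as well, with 24 and 14 at an unadjusted p under 0.05. For tgs1 against ynr004w at 16 °C, 5 of 982 genes passed (0.509%) and none of the 4, with 143 genes at an unadjusted p under 0.05. Over single arrays 0 genes passed, with 35 unadjusted. CUP1-1 came to 0.27 ± 0.06 (SE; limma, adjusted p = 0.0686).

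Heat shock factor genes were read for comparison, since Hsf1 can also act on CUP1, and 9 of 26 listed were measured. At 16 °C in tgs1 2 passed higher and 5 lower (46.1% of all genes passed). HSC82 was at 0.21 ± 0.07 (SE; limma, adjusted p = 0.0281) and SSA2, an Hsp70, at 0.20 ± 0.05. SIS1 was at -0.40 ± 0.10 (adjusted p = 0.00768), KAR2, an Hsp70 gene of the secretory pathway, at -0.38 ± 0.06, HSP104, a disaggregase, at -0.24, SSA3 at -0.24 and SSE2 at -0.11. Over single arrays none passed higher and 3 lower (12.5% of genes).

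In ynr004w at 16 °C HSC82 passed higher at 0.28 ± 0.07 (SE; limma, adjusted p = 0.0124) and 4 passed lower (32.8%): SIS1 at -0.42 ± 0.10 (adjusted p = 0.00837), HSP104 at -0.26, SSA3 at -0.15 and SSE2 at -0.13. Over single arrays only SIS1 passed (9.16% of genes). Averaged over the time points at 16 °C, CUP1-2 had the sign of HSC82 and the opposite sign of SIS1. At 40 min in tgs1 HSC82 was at -0.03, where CUP1-2 was at 0.24, and the HSC82 calls at 16 °C ended over single arrays (limma, adjusted p = 0.307 in tgs1 and 0.226 in ynr004w). All 3 genes stepped down between 10 and 40 min. In csn12 8 of the 9 passed higher and 1, SSE2, lower (36.8% of all genes passed). Over single arrays 7 passed higher and 0 lower (7.03%), without SSA2 and SSE2. The list's median was 0.63 against -0.01 over all genes, and CUP1-2 was at -0.38 there. SSA1 and SSA4, also Hsp70 genes, were at 0.63 and 0.58.

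At 30 °C none of the 9 passed in tgs1 by limma on pair means or on single arrays (5.7% of genes on pair means, with 251 at an unadjusted p under 0.05), and in ynr004w HSC82 passed higher at 0.58 and SSE2 lower at -0.26 (5.91%). Both calls ended over single arrays (limma, adjusted p = 0.488 and 0.998; 1.02% of genes passed). In isy1, where CUP1-2 was at 0.44, 4 of the 9 passed higher and none lower, close to the share of all genes (42.2%). Over single arrays 2 passed, SSA1 and SSA2 (11.7%). In csn9 3 passed higher (21.9% of genes) and 1 over single arrays (2.65%). In pci8 1 passed higher (32.0%), in YPR045C 1 lower (18.8%), and neither over single arrays (2.65% and 1.12%). In ist3 2 passed higher and 2 lower (56.4%), and 1 higher over single arrays (12.9%). None passed for 16 °C against 30 °C in either strain.

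Of the lists of other stress genes, 1 of 26 oxidative stress genes was measured, 2 of 21 cold response genes and 0 of 25 general stress genes. YAP1, the activator of the oxidative stress response, was at 0.22 ± 0.05 in tgs1 at 16 °C (SE; limma, adjusted p = 0.00439; 0.121 over single arrays) and at 0.12 ± 0.05 in ynr004w, where it did not pass (adjusted p = 0.0665; 0.564 over single arrays). NSR1, a nucleolar protein gene, was at 0.29 ± 0.04 in tgs1 at 16 °C (adjusted p = 0.000757; 0.000807 over single arrays) and at 0.14 ± 0.04 in ynr004w (adjusted p = 0.036; 0.134 over single arrays). RPL2B, a ribosomal protein gene, was at 0.15 ± 0.04 and 0.18 ± 0.04 (adjusted p = 0.00787 and 0.00567; 0.104 and 0.0766 over single arrays). Of all genes 46.1% passed at 16 °C in tgs1 and 32.8% in ynr004w. These levels are against wild type and not a change with cold: NSR1 was already at 0.21 in tgs1 and 0.14 in ynr004w at 30 °C. From 30 °C to 16 °C NSR1 moved by 0.07 in tgs1 and -0.00286 in ynr004w, and RPL2B by 0.06 and 0.12.

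The genes most like CUP1-2 were found by Pearson's r of their pair means with those of CUP1-2. Both genes of a pair were read on the same arrays and against the same wild-type RNA, so r is given as a description. Over the 8 conditions of tgs1 and ynr004w the 5 highest were HAS1 (0.94), ENA1, a sodium pump gene (0.92), SBP1 (0.91), STE12 (0.91) and NPL3, which encodes a nuclear RNA-binding protein (0.91). The median of |r| over all genes was 0.32. HAS1 read 0.41, 0.33, 0.20 and 0.11 through tgs1 and 0.18, 0.19, 0.07 and -0.01 through ynr004w. It started high and ended low in either strain, as CUP1-2 did. STE12 shared the shape at a lower level, from 0.03 to -0.25 in tgs1.

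**Figure D5:**
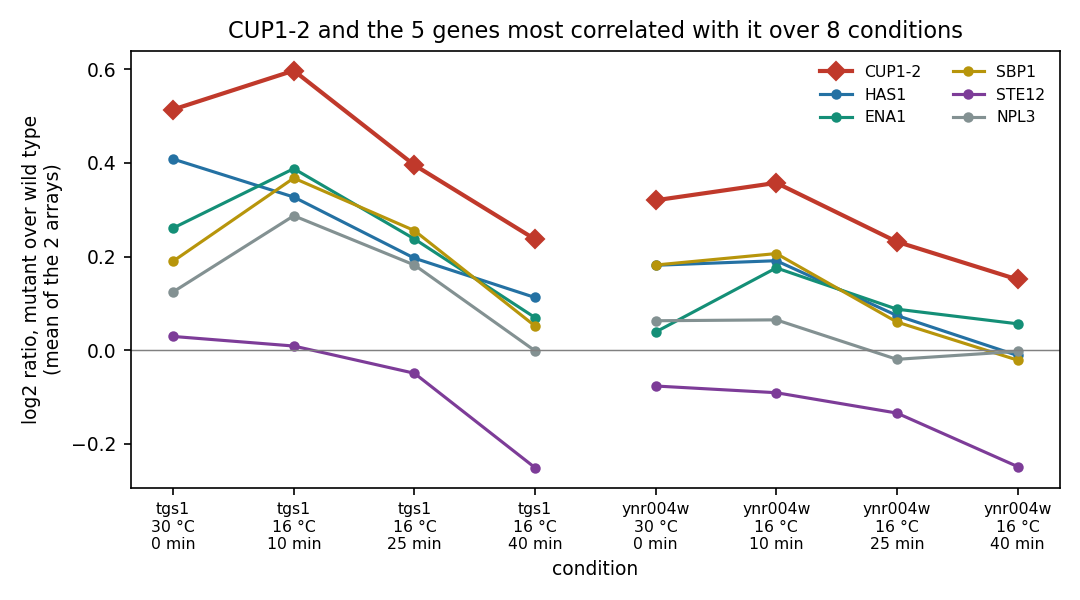
Mean log2 ratio of 2 arrays (mutant over wild type, vertical axis) of CUP1-2 and of the 5 genes with the highest Pearson's r with it over the 8 conditions of tgs1 and ynr004w (horizontal axis, lines joined within a strain). The curves drop from 10 to 40 min in both strains, and CUP1-2 lies above the others.

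Over all 14 conditions the 5 highest were NHP6A (r = 0.88), RPS28A (0.87), SET2 (0.86), CGR1 (0.86) and PHD1 (0.85), and the 3 lowest AIR1 (-0.88), EPT1 (-0.81) and RPS13 (-0.81). The median of |r| was 0.36. NHP6A encodes a chromatin protein with an HMG box, SET2 a histone H3 methyltransferase, CGR1 a factor of rRNA processing and PHD1 a transcription factor of filamentous growth. All 5 were at their lowest or close to it in csn12, from -0.36 for SET2 to -1.08 for CGR1. Without csn12 and tgs1 at 10 min, the conditions farthest from the median of CUP1-2, the r of NHP6A was 0.55 and that of SET2 0.84. HAS1 ranked 7 over 14 conditions with r = 0.81, while STE12 and NPL3 had r = -0.29 and -0.21 there.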

How the data were processed

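Mutant and wild-type total RNA (acid phenol extraction, aa-dUTP taken up during cDNA synthesis, per the labels' protocols) shared an array. The deposited values are 1 log ratio per spot, read here as log2. Neither labels nor files state the scanner, background correction, normalization, log base or direction. All 28 columns were mapped to samples. Gene names came from the platform annotation, updated by gene identifier to the RefSeq table of assembly R64 (982 of 982 matched). Of 1536 probes of 6 spots, 1457 had 1 gene, 0 several and 79 none; the last were not used. The annotation names no build, so genome positions are left out.

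After subtracting each array's median, spots, probes of a gene and the 2 arrays of a pair were averaged, leaving out probes that lacked values on both arrays of any pair. CUP1-2 was only described. Other genes were tested with limma 3.58.1 in R 4.3.3 (lmFit, eBayes) on 14 pair means in 10 groups, 8 of them with 1 pair, with 2-sided tests and Benjamini-Hochberg adjustment at 0.05 over 982 genes. The spread behind the p-values comes from the 3 time points at 16 °C in tgs1 and ynr004w (4 residual and 6.33 prior degrees of freedom). The alternative fit over single arrays has a dye term, which is the replicate block, since an array's number marks its dye and no shared culture. Arrays of a pair correlated above 0 in 3 of 14 pairs, and in 12 once the mean of each dye was removed. The lowest correlation between arrays of one dye was -0.16. The fit was also run on simulated independent pair means, without dye effect or time trend, with changes put only into tgs1 at 16 °C. That run cannot show how the tests behave in the 8 groups of 1 pair.

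CUP1-2 and the gene lists were chosen with earlier results of these data known. The rule for named genes took every measured gene of the copper and iron and the heat shock factor lists. It also took up to 4 genes of each other list past the threshold at 16 °C, the 5 highest and 3 lowest r over 14 conditions, the 5 highest r over 8, the genes ranked next to CUP1-2 where its rank is given, the mating type markers, and measured neighbours of CUP1-2.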

Additional observations from a re-analysis of the deposited data

Results flagged for a closer look

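CUP1-2 in csn12 was at -0.38, below 0 on both arrays, while 12 other conditions were above 0 on both arrays. The difference between them was not tested. With 2 arrays a condition, no group was large enough to look for a single array far from the rest.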

How the results depend on the processing

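Subtracting the mean of each dye orientation takes off about the average level by construction. It left csn12 at -0.63, isy1 at 0.19, tgs1 at 0.26, 0.34, 0.14 and -0.016 from 30 °C to 40 min, ynr004w at 0.067, 0.10, -0.021 and -0.10, YPR045C at -0.10, ist3 at -0.22, csn9 at -0.00012 and pci8 at -0.019, so 7 levels changed sign. It cancels from every difference by construction and tests none of them. The spots at either end of the slide, an alternative chosen after seeing the data, gave 0.14 and -0.066 in ist3, 0.29 and 0.21 in csn9, 0.48 and 0.55 in tgs1 at 30 °C, 0.062 and 0.012 for 10 min minus 30 °C in ynr004w, and -0.060 and -0.087 for its 16 °C mean minus 30 °C.

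Values as deposited gave 0.25 in csn9, 0.029 for the ynr004w 10 min difference and -0.082 for its 16 °C mean difference. Centring on genes of 1 probe gave 0.28 in csn9, 0.39 in isy1, 0.057 and -0.056 for those differences, and 0.13 for tgs1 minus ynr004w at 25 min. Scaled arrays gave 0.36 in csn9, 0.42 in tgs1 at 30 °C, -0.22 for tgs1 40 min minus 30 °C, 0.053 and -0.062 for the ynr004w differences, and 0.10, 0.15, 0.10 and 0.04 for tgs1 minus ynr004w from 30 °C to 40 min. Medians of the spots gave 0.22 in csn9 and 0.50 in tgs1 at 30 °C. The causes were not tested. On single arrays the sign turned in ist3 (-0.018 to 0.088), for tgs1 10 min minus 30 °C (-0.019 to 0.19) and for tgs1 minus ynr004w at 40 min (-0.058 to 0.23).

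Calls of list genes against wild type numbered 114 over the 10 groups, with a gene counted once in each group where it passed. The lists counted include those of a-cell and alpha-cell genes. Of all genes, 5.7% to 56.4% passed, by group. The calls numbered 105 to 120 when a 16 °C pair was left out. With the replicate block they numbered 67, where 1.02% to 12.9% of all genes passed. The block also ended 8 of 13 calls of copper and iron genes. For tgs1 against ynr004w at 16 °C, 0 list genes were called, 0 with the replicate block, 5 with scaled arrays and 0 to 3 when a pair was left out: 3 without tgs1 at 40 min and 1 without ynr004w at 40 min. The likeness of NHP6A was 0.71 by Spearman's rho, 0.75 over 28 arrays with dye means removed, and 0.55 without the 2 farthest conditions. With 2 arrays a condition, their number limits the precision.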
